A study of Mus musculus with 4 samples.

Results

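The *Tac1*/*Tfap2c* type of distal glans mesenchyme was examined in single-cell libraries of the fetal mouse penis. Its cells were chosen from the counts by a fixed rule. A barcode was taken where it held 1000 to 10000 unique molecular identifiers (UMIs, each marking 1 captured mRNA molecule), at most 25% of them mitochondrial and at most 25% from *Hba-* and *Hbb-* hemoglobin genes. It also had to show at least 1 UMI of at least 3 of 6 genes, *Tac1*, *Tfap2c*, *Col13a1*, *Fgf9*, *Adgrl3* and *Crym*. This gave 2831 *Tac1*/*Tfap2c* cells among 33704 cells within the limits and 47040 deposited barcodes.

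The study asked what the loss of cells of the *Nr5a1* lineage does to the other cells of the penis at E16.5, the stage of urethra closure. Whole penises of male embryos were dissociated and run as 4 10x Genomics 3′ libraries, pooled on 1 flow cell. The 2 control libraries (DTA-) came from embryos with the *Rosa-LSL-DTA* allele (+/f) and no Cre. The 2 ablated libraries (DTA+) came from embryos with *Nr5a1-Cre* Tg/+ and *Rosa-LSL-DTA* +/f, and by the study's methods also *Rosa-LSL-tdTomato* +/f, in which diphtheria toxin is made wherever the Cre was active. *Nr5a1-Cre* is also active in the adrenals and the testes; the adrenals of ablated embryos were lost and their testes were small, so loss of *Nr5a1* lineage cells in the penis and loss of these glands cannot be told apart here.

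The glans is the outer end of the penis. Its mesenchyme grows out under the control of BMP, WNT, FGF and Hedgehog signals and carries homeobox factors of the Msx, Alx and Hox families, as distal limb mesenchyme does. Of the 6 selecting genes, *Tac1* encodes the precursor of the neuropeptides substance P and neurokinin A, *Tfap2c* an AP-2 transcription factor, *Col13a1* a transmembrane collagen, *Fgf9* a secreted growth factor, *Adgrl3* the adhesion receptor latrophilin 3 and *Crym* a thyroid hormone-binding protein.

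The first control held 756 *Tac1*/*Tfap2c* cells with 4083791 UMIs in all, the second 438 with 2176803. The first ablated library held 505 cells with 2080217 UMIs, the second 1132 with 4575424. Control cells had medians of 5036 and 4500.5 UMIs, ablated cells medians of 3635 and 3389. The control cells were therefore deeper, and so were all other kept cells, with medians of 5069 and 4231 UMIs against 3686 and 3711. No *Tac1*/*Tfap2c* barcode occurred in more than 1 library, and 15 to 24 kept barcodes were shared by each pair of libraries.

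The selecting genes chose the cells, so their levels are given as a description only. In CPM (each gene's UMIs per 1000000 UMIs summed over the cells of a library), *Tac1* (ENSMUSG00000061762; GRCm38 chromosome 6, 7554879 to 7565834) was at 521 and 368 in control and 641 and 869 in ablated *Tac1*/*Tfap2c* cells. In all other kept cells it was at 45.7, 31.9, 67.5 and 118. *Tfap2c* (ENSMUSG00000028640; chromosome 2, 172549593 to 172558622) was at 83.3 and 77.6, then 96.1 and 132. *Crym* (ENSMUSG00000030905; chromosome 7, 120186380 to 120202111) was the sparsest, at 81.8, 42.7, 49.0 and 70.2 CPM. At least 1 UMI of *Adgrl3* was seen in 89.3%, 94.1%, 93.9% and 90.9% of the chosen cells, and of *Crym* in 25.3%, 13.9%, 13.9% and 17.8%. The members are therefore not cells with all 6 genes: 1817 had 3 of them, 787 had 4, 192 had 5 and 35 had all 6.

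Whether the 6 genes go together was described by leaving out each in turn. Among kept cells with at least 3 of the other 5 genes, *Tac1* was detected in 69.3%, 52.4%, 67.0% and 78.4% of cells in the 4 libraries, in the order control 1 and 2, ablated 1 and 2. Among cells with none of the other 5 it was detected in 8.03%, 5.27%, 9.36% and 14.3%, and in hemoglobin-rich barcodes, which should lack it, in 1.39% to 3.27%. Hemoglobin genes made up a median of 92.6% to 93.4% of the UMIs of those barcodes, which leaves few for other genes. Both classes of kept cells were about equally deep (medians of 5333.5 and 4956 UMIs in the first control, 3499 and 3564 in the second ablated library). In each library the left-out gene was found more often beside the other 5 than without them, for all 6 genes. Over the 4 libraries, *Tfap2c* was seen in 21.4% ± 6.72 (SD, n = 4) against 1.56% ± 0.678, *Crym* in 12.2% ± 4.60 against 0.343% ± 0.0858 and *Adgrl3* in 80.6% ± 2.56 against 33.2% ± 4.29. *Adgrl3* was thus the least particular of the 6, with a ratio of 2.43, and *Crym* the most, with a ratio of 35.5 (13.3 with cells drawn down to 1000 UMIs), although *Crym* in cells with none of the others lay at the level of the hemoglobin-rich barcodes (0.215% to 0.676%).

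**Figure D1:**
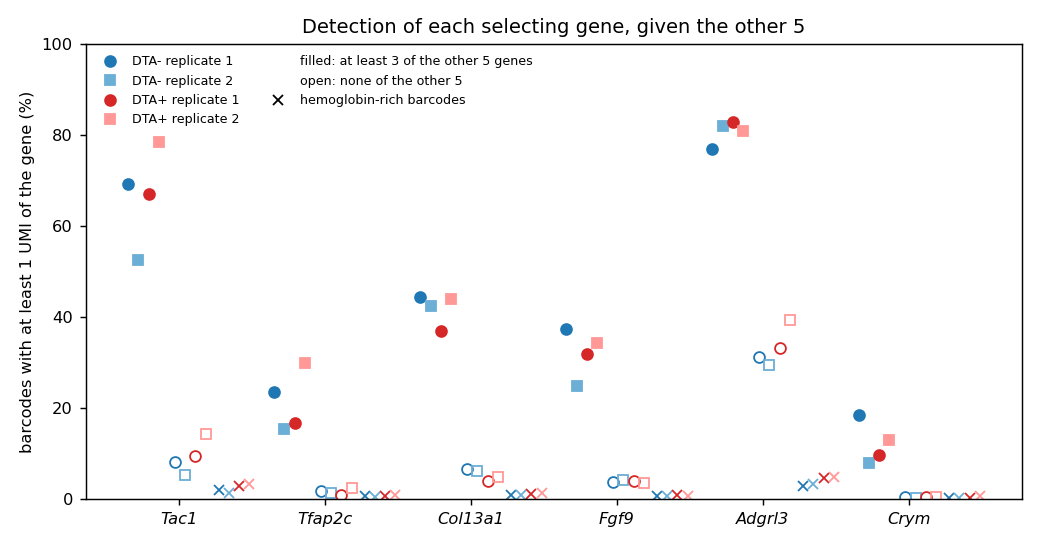
Share of barcodes with at least 1 UMI of each selecting gene (y axis, percent), in kept cells with at least 3 of the other 5 genes (filled), in kept cells with none of them (open) and in hemoglobin-rich barcodes (crosses); each point is 1 of the 4 libraries. The filled points lie above the open points of the same gene and library for all 6 genes; for *Tac1* they reach from 52.4% to 78.4%, the open points from 5.27% to 14.3%.

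Beyond the selecting genes, the leading 25 genes of the *Tac1*/*Tfap2c* cells were taken as those with the highest ratio to all other kept cells in the library where that ratio was lowest, after adding 10 CPM to both levels, and they are given with no test, since the same cells were chosen by their counts. *Cpxm2*, an inactive carboxypeptidase family member, led them at 65.4, 76.7, 95.2 and 69.1 CPM against 12.9, 16.8, 15.1 and 14.2 in the other cells. *Bmp7*, a secreted BMP ligand, was at 100.2, 89.6, 102.9 and 114.5 CPM against 23.4, 21.2, 23.8 and 27.5. *Prdm1*, a transcriptional repressor, was at 89.6, 97.4, 134.1 and 156.7 CPM against 23.7, 23.6, 26.8 and 38.9. The ratio ranged over the 4 libraries from 4.16 to 4.32 for *Bmp7*, from 3.78 to 5.0 for *Prdm1* and from 4.58 to 6.30 for *Cpxm2*.

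The other leading genes included the transcriptional regulators *Dach1* (3.51- to 4.59-fold higher than in other cells), *Alx4* (3.05- to 3.87-fold), *Msx1* (at least 2.87-fold), *Msx2* (2.71- to 4.31-fold), *Vgll4* and *Lmo7*. *Nkd2*, an inhibitor of WNT signaling, was 2.97- to 3.75-fold higher and *Fzd10*, a WNT receptor, 3.09- to 4.08-fold. *Bambi*, a decoy receptor of BMP and activin, was 2.47- to 3.31-fold higher. The cells also held more *Kcna4*, a potassium channel subunit (4.68- to 6.79-fold), *Epha7*, a receptor of ephrins (3.05- to 3.64-fold), *Crabp2*, which carries retinoic acid (up to 3.37-fold), and agouti (*a*), an antagonist of melanocortin receptors best known in hair follicles (2.46- to 3.56-fold). The rest were *Pde4d*, *Prss23*, *Dpysl3*, *Prr5l*, *Smoc2*, *Ccdc3*, *Tril*, *Rerg* and *Glcci1*.

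The 10 genes lowest relative to the other cells were chosen in the same way. *Dlk1* (ENSMUSG00000040856; chromosome 12, 109452823 to 109463336), a Notch-like transmembrane protein of immature mesenchyme, was at 61.7, 55.6, 95.7 and 75.2 CPM against 441.5, 573.5, 489.2 and 534.5 in the other cells. *Ogn*, the matrix proteoglycan osteoglycin, was at 28.2, 81.8, 84.1 and 64.7 CPM against 300.4, 482.4, 470.3 and 342.1. *Nr2f2*, a nuclear receptor, was at 7.59, 10.6, 22.6 and 21.2 CPM against 58.8, 71.8, 116.7 and 102.6. *Ebf1*, *Akap12*, *Igfbp5*, *Slc26a7*, *Aspn*, *Meis1* and *Cthrc1* completed them, all at less than 0.26 of the level in other cells in each library (highest ratio 0.252, for *Slc26a7*).

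In summed counts, the threshold of 3 genes lay on a gradient. *Bmp7* was at 14.7 CPM ± 2.05 (SD, n = 4) in cells with none of the 6 genes, 25.3 ± 0.958 with 1, 55.4 ± 2.33 with 2, 90.6 ± 6.39 with 3 and 121.6 ± 14.1 with 4 to 6. *Dlk1* ran the other way, at 513 CPM ± 62.7, 594.5 ± 55.4, 249.2 ± 79.96, 79.7 ± 25.8 and 58.7 ± 2.94. The sums of the 4044 cells with 2 genes, just outside the rule, thus lay between those of cells with none and of the chosen cells in both genes. Such sums cannot tell intermediate cells from a mixture of kinds of cells. Both genes had also been picked for their difference between chosen and other cells.

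**Figure D2:**
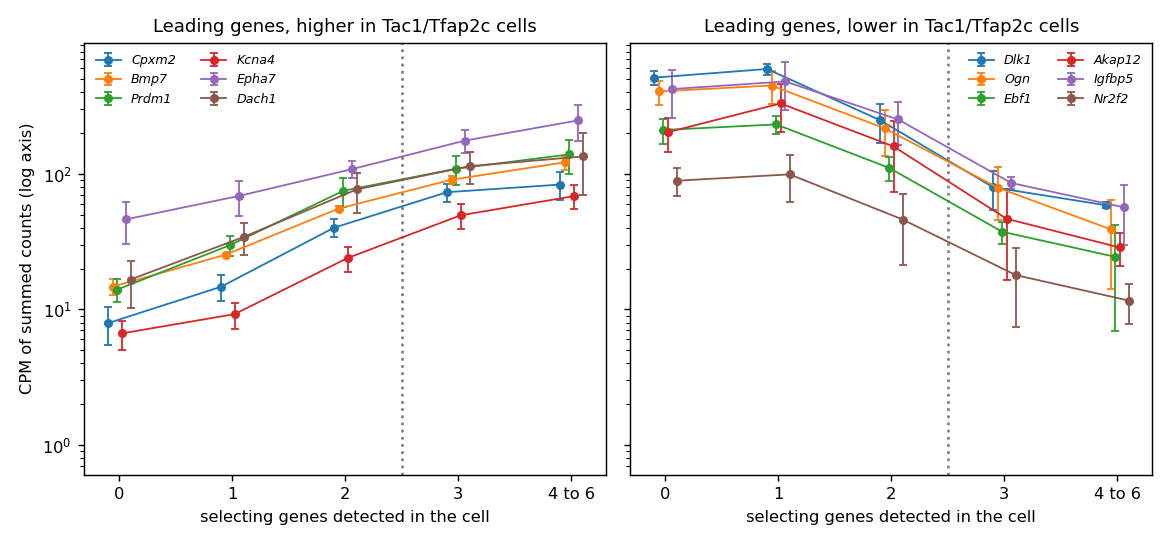
Levels of 6 leading genes (left) and of 6 of the lowest genes (right) in kept cells grouped by the number of selecting genes detected; points are means over 4 libraries of the CPM of summed counts (log axis), bars are SD, and the dotted line marks the threshold of the rule. *Bmp7* rises in steps from 14.7 to 121.6 CPM while *Dlk1* drops from 594.5 CPM with 1 gene to 58.7 CPM with 4 to 6.

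The label of a distal glans mesenchyme was checked against marker lists. At least 3 of 11 general mesenchyme markers were detected in all 756 chosen cells of the first control and in 99.8%, 99.8% and 99.6% of those of the other libraries. In the other kept cells the mean shares were 95.19% (control) and 95.23% (ablated). At 1000 UMIs per cell, mean shares were 80.96% of chosen and 86.9% of other control cells, and 87.4% and 88.7% of ablated ones. Summed, the 11 markers were lower in the chosen cells, at means of 7192 and 8010 CPM against 15230 and 14650. Detection of this list thus hardly sets the chosen cells apart. At least 3 of 13 distal glans markers were detected in 92.6%, 89.3%, 83.0% and 93.2%, against 62.7%, 49.96%, 44.9% and 60.4% of the other kept cells. Not all markers of that list were higher: *Dlx5* was at 20.8, 10.6, 23.1 and 27.3 CPM in the chosen cells against 44.8, 21.7, 26.4 and 47.7 in the others, and *Dlx6* was lower too. At least 3 markers of any of 7 other classes (epithelium, endothelium, pericyte and smooth muscle, macrophage, mast cell, glia, skeletal muscle) were found in 2.91%, 2.51%, 0.990% and 1.68% of the chosen cells. The 12 epithelial markers summed to 32.1, 14.2, 37.02 and 32.1 CPM in the chosen cells, against 161.1, 106.6, 204.4 and 118.1 in the other kept cells; *Dsp* was the most abundant of them in the chosen cells and *Cdh1* alone was at 0.

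For comparison, cells with both *Msx2* and *Inhba* and fewer than 3 selecting genes were taken, of which there were 1505. *Alx4* and *Msx1* were at similar levels in both (means of 229 and 240 CPM for *Alx4*, 356 and 413 for *Msx1*). *Bmp7* was at 102 CPM in *Tac1*/*Tfap2c* cells and 28.9 in *Msx2*/*Inhba* cells, *Kcna4* at 55.9 and 9.53, *Nkd2* at 213 and 54.5 and agouti (*a*) at 428 and 112. In these genes the *Msx2*/*Inhba* cells were thus closer to the other kept cells (23.97, 9.85, 63.9 and 142 CPM) than to the *Tac1*/*Tfap2c* cells.

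The *Tac1*/*Tfap2c* cells made up 9.95% (95% exact binomial interval 9.28 to 10.6) and 5.19% (4.73 to 5.69) of kept cells in control libraries, and 6.08% (5.58 to 6.62) and 12.1% (11.4 to 12.8) in ablated libraries. The genotypes overlapped, at 7.57% ± 3.36 and 9.08% ± 4.25 (SD, n = 2 each), and no test was made. With each cell drawn down to 1000 UMIs before the rule was applied, the shares were 0.789% and 0.474% against 1.10% and 2.62%, which did not overlap. An exact permutation test (two-sided) of 2 against 2 libraries cannot go below p = 0.333, and the intervals cover counting error only.

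In ablated embryos, *Tac1*/*Tfap2c* cells had lower levels of genes of the cell cycle and higher levels of *Igfbp3* and of a set of axon guidance genes. The *Msx2*/*Inhba* cells moved in the same directions, as given below. Counts were summed over the cells of each library and compared between genotypes with edgeR's quasi-likelihood test, and genes with a Benjamini-Hochberg adjusted p under 0.05 are called. Of 11443 genes tested, 979 were called (8.56%), 378 higher (3.3%) and 601 lower (5.25%) in ablated cells. Without edgeR's scaling factors the split was 488 higher and 460 lower. For 53.8% of the genes both ablated levels lay on the same side of both control levels, so a lack of overlap is common here. The lists below were chosen with earlier results of these data known. In bulk sums of this kind, fewer cells of a state and less RNA per cell cannot be told apart. The methods give n = 2 for the E16.5 embryos, without the number per library. The p-values therefore measure the spread between libraries.

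All 18 genes of a cell cycle list were tested and all 18 fell in ablated *Tac1*/*Tfap2c* cells, where 5.25% of all genes fell. DESeq2 called 16 of them, members with at least 4 selecting genes gave 11, and each left-out library gave 15 or 16. Their median log2 fold change was -1.08, against 0.01 for all genes. *Top2a* (ENSMUSG00000020914; chromosome 11, 98992943 to 99024189), the DNA topoisomerase of dividing cells and the most abundant of the list, was at 452 and 669 CPM in control and 289 and 221 in ablated cells. Every ablated library thus lay below both controls. The log2 fold change was -1.19 (SE 0.18, edgeR quasi-likelihood adjusted p = 0.00166). *Mki67*, which encodes the Ki-67 antigen of cycling cells, was at 138 and 250 CPM against 119.7 and 87.2, so the first control lay close to the first ablated library.

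The list holds genes of DNA replication and of mitosis, and both kinds fell. Of those used in DNA replication, the clamp gene *Pcna* was at 169 and 190 CPM against 105.3 and 105.8, *Mcm3*, of the replicative helicase, at 85.0 and 84.1 against 41.3 and 44.6, and *Rrm2* and *Tyms*, which make nucleotides, had log2 fold changes of -1.32 and -1.19. Of those used in mitosis, *Cdk1*, the mitotic kinase, was at 132 and 147 CPM against 59.1 and 67.3. *Ccnb2*, encoding cyclin B2, showed the largest fall of the list, from 54.1 and 72.1 CPM to 18.75 and 26.01 (log2 -1.48, SE 0.21, edgeR adjusted p = 0.00126). *Birc5*, *Ube2c* and *Cdc20* were at -1.37, -1.37 and -1.25 on the log2 scale, and *Mcm6* changed least, at -0.56, with its call lost in 11 of 16 alternatives, each left-out library among them. *Ccnb1* lost its call without either control.

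Since these genes moved together, the 150 bases before the RefSeq start of each were searched for 2 letter patterns of cell cycle promoters, CCAAT, bound by NF-Y, and TTTGAA, the core of the cell cycle homology region, on both strands. Matches of the different patterns can overlap by at most 1 base. CCAAT was found in 13 of the 17 genes with a listed promoter (76.5%) and in 25.3% of all 27025 promoters, TTTGAA in 6 of 17 (35.3%) and 9.24% of all, and both in 5 of 17 (29.4%) and 2.32% of all. A match is a description of the letters only. The 2 sequences shown are those of the gene with the largest fall and of the most abundant gene, in transcript orientation on the minus strand of GRCm38.p6, with matches to either pattern in capitals; *Ccnb2* is at chr9:70421555-70421704 and *Top2a* at chr11:99024190-99024339.
*Ccnb2*: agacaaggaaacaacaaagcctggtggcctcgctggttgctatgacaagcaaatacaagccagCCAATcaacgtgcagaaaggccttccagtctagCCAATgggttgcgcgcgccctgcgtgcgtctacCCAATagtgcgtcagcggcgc
*Top2a*: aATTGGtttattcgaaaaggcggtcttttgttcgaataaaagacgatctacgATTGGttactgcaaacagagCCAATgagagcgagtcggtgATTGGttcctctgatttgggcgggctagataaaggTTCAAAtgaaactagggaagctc
The *Ccnb2* stretch holds 3 CCAAT matches and no TTTGAA; that of *Top2a* holds 4 CCAAT matches and 1 TTTGAA on the opposite strand.

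The change was also seen cell by cell. With each cell drawn down to 1000 UMIs, at least 3 of the 18 genes were detected in 23.7% and 28.5% of control *Tac1*/*Tfap2c* cells and in 10.7% and 9.36% of ablated ones. At full depth the shares were 48.4% and 51.1% against 21.8% and 22.2%. The genotypes did not overlap in either form. The hemoglobin-rich barcodes, drawn down in the same way, lay at 0.344% to 0.467%. Their median hemoglobin share was 92.6% to 93.4%, which leaves few drawn UMIs for other genes, so this low share says little about the kept cells. In the other kept cells the shares at 1000 UMIs were 9.60% and 10.8% against 7.36% and 5.29%, and in *Msx2*/*Inhba* cells 12.9% and 9.71% against 4.73% and 4.55%. Among control cells the *Tac1*/*Tfap2c* cells thus held the highest share of the 3 groups.

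**Figure D3:**
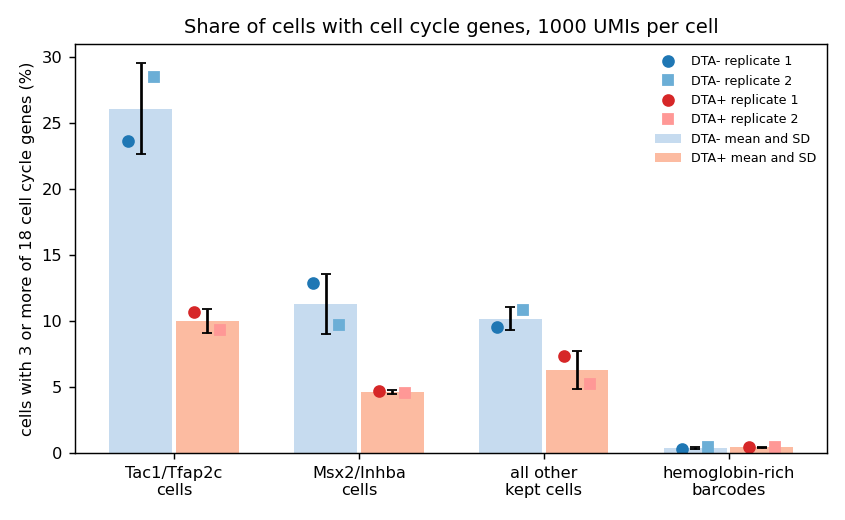
Share of cells with at least 3 of 18 cell cycle genes (y axis, percent) after each cell was drawn down to 1000 UMIs, in 4 groups of barcodes; bars are means of 2 libraries, error bars SD and points the libraries. In *Tac1*/*Tfap2c* cells the controls sit at 23.7% and 28.5% and the ablated libraries at 10.7% and 9.36%. Hemoglobin-rich barcodes hold few UMIs of other genes and set no reference level for the other groups.

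Depth moved with this result. Members with at least 3 cell cycle genes had median depths of 6019.5 and 5601 UMIs (control) and of 4949 and 4987 (ablated), and the other members 4324, 3595, 3378 and 3109. With the same cells each drawn down to 1000 UMIs, 16 of the 18 genes were called lower, where 3.62% of all genes were (median log2 -1.13). Within cells of 2000 to 5000 UMIs all 18 remained below 0 and 7 were called, where 1.88% of all genes were called lower (median -0.82); *Top2a* was then at -0.82 (edgeR adjusted p = 0.0863) and *Mki67* at -0.64 (edgeR adjusted p = 0.305). Both depth settings were added after the data were seen, and how far the difference in depth carries the fall was not tested further.

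**Figure D4:**
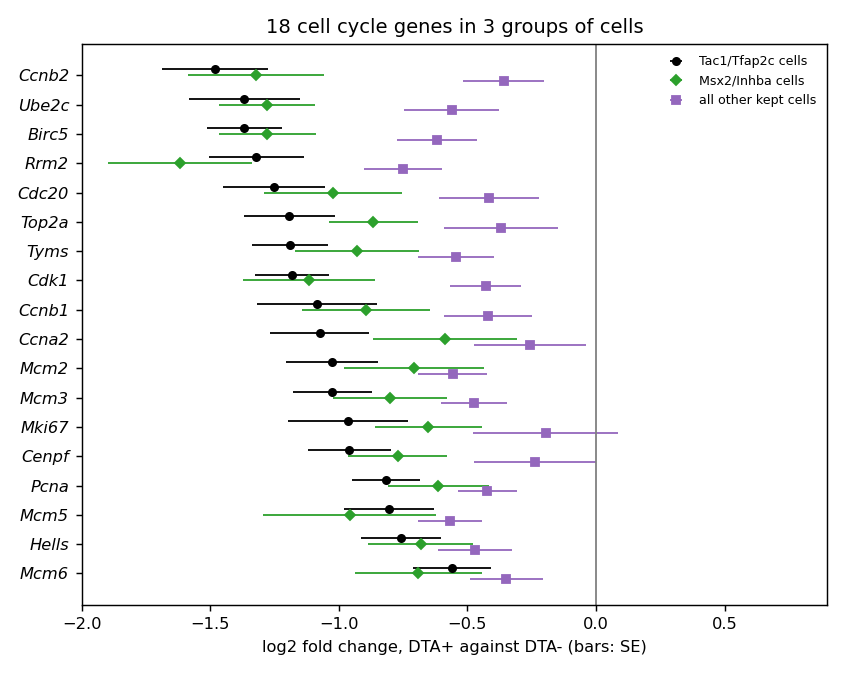
Log2 fold change between ablated and control libraries of 18 cell cycle genes (x axis; bars are SE of edgeR's fit, 2 libraries per genotype) in *Tac1*/*Tfap2c* cells, in *Msx2*/*Inhba* cells and in all other kept cells. All 18 lie below 0 in each group, with medians of -1.08, -0.88 and -0.43.

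Whether the response of the *Tac1*/*Tfap2c* cells differed from that of the other cells was tested as an interaction of cell group and genotype. Against all other kept cells, 37 of 15472 genes were called (0.239%), 15 with a higher (0.0969%) and 22 with a lower (0.142%) response in *Tac1*/*Tfap2c* cells. This split depended on depth and on the rule: it was 24 higher and 0 lower within cells of 2000 to 5000 UMIs, 35 and 18 with the same cells drawn down to 1000 UMIs, and 66 and 19 with at least 4 selecting genes. Of the 18 cell cycle genes 2 were among them. For *Top2a* the response was lower by 0.85 on the log2 scale (log2 -0.85, SE 0.10, edgeR adjusted p = 0.00946) and for *Mki67* by 0.77 (log2 -0.77, SE 0.12, edgeR adjusted p = 0.0221); the median over the list was -0.69. Within cells of 2000 to 5000 UMIs none of the 18 was called and the median difference was -0.24 (edgeR). Without a term for the sample no gene at all was called (edgeR, 0 genes).

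The 6 largest differences in each direction among called genes at 20 CPM or more were named. None of the 6 on the lower side passed the threshold within cells of 2000 to 5000 UMIs, where they lay between -1.07 and -0.47. On the lower side, *Uhrf1*, a cofactor of DNA methylation in replication, was at 52.2 and 60.6 CPM in control and 19.7 and 17.3 in ablated *Tac1*/*Tfap2c* cells, and at 25.4, 28.5, 25.1 and 18.3 in the other cells. Its response differed by -1.28 (SE 0.17). The mitotic genes *Aurkb* and *Prc1*, the midbody gene *Shcbp1* and *Lmnb1*, of the nuclear lamina, differed by -1.14, -1.04, -1.12 and -1.01. *Sfrp1*, a secreted WNT antagonist, differed by -1.04 in another way: it was at 37.95, 40.9, 49.5 and 44.6 CPM in *Tac1*/*Tfap2c* cells, and at 18.4 and 15.4 in control and 39.1 and 42.0 in ablated other cells.

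On the higher side, *Abi3bp*, a matrix protein (ENSMUSG00000035258; chromosome 16, 56477878 to 56690135), had the largest difference, 1.59 (SE 0.14, edgeR adjusted p = 9.35e-04). It was at 28.9 and 43.2 CPM in control and 64.9 and 58.8 in ablated *Tac1*/*Tfap2c* cells, but at 148.5 and 243.8 in control and 116.8 and 100.1 in ablated other cells. The 2 groups of cells thus moved in opposite directions. *Rgs2*, a regulator of G protein signaling, was at 15.2 and 13.8 CPM against 50.5 and 31.7 in *Tac1*/*Tfap2c* cells and at 51.5, 54.3, 59.8 and 47.7 in the others (difference 1.37). *Selenop*, a selenium carrier, differed by 1.24, *Adra2a*, an adrenergic receptor, by 1.56, *Ablim1* by 1.30 and *Klf9*, a glucocorticoid- and thyroid hormone-responsive factor, by 1.26. The level of *Klf9* in *Tac1*/*Tfap2c* cells overlapped between genotypes (31.8 and 45.5 against 43.3 and 51.1 CPM), whereas in the other cells it was 52.9 and 104.4 against 40.5 and 36.4.

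Against *Msx2*/*Inhba* cells, no difference in response was called by edgeR's quasi-likelihood test (0 of 11361 genes, 0.0%), with 674 genes (5.93%) at an unadjusted p under 0.05 and 10 called by the likelihood ratio test. For *Top2a* the difference was -0.31 (SE 0.17) and for *Ccnb2* -0.12 (SE 0.33). These standard errors leave room for differences of that size, so equal responses are not shown. In *Msx2*/*Inhba* cells alone, 5 of the 18 cell cycle genes were called lower (*Top2a*, *Ccnb2*, *Birc5*, *Ube2c* and *Rrm2*), with a background of 0.32% called lower.

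Beyond the cell cycle, the 12 leading falls of *Tac1*/*Tfap2c* cells were headed by *Mt1*, a metal-binding metallothionein induced by glucocorticoids and zinc, at 24.7 and 44.1 CPM in controls and 6.25 and 6.99 in ablated cells (log2 -2.35, SE 0.31, edgeR adjusted p = 9.13e-04). *Fkbp5* (ENSMUSG00000024222; chromosome 17, 28399094 to 28517527), a chaperone of the glucocorticoid receptor that the receptor induces, was at 40.2 and 52.8 against 13.5 and 14.2 CPM (log2 -1.77). *Socs2*, an inhibitor of growth hormone signaling, was at 29.9 and 46.9 against 13.5 and 14.2 CPM (log2 -1.47). In all 3 both ablated libraries lay well below the controls. *Fkbp5* was lower in the other cells too, at 77.7 and 78.2 against 13.2 and 13.6 CPM. The cell cycle genes *Uhrf1*, *Tk1*, *Aurkb*, *Cenpm*, *Cdca2* and *Ccnb2* were 6 more of the 12.

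The other leading falls were the hemoglobin genes *Hbb-bt*, *Hba-a2* and *Hba-a1*, near-identical copies of which share reads. Hemoglobin is made by red cells. The 7 hemoglobin genes listed summed to 4200 and 4282 CPM in control and 2324 and 1222 in ablated *Tac1*/*Tfap2c* cells, and to 4189, 3637, 2445 and 881 in the other kept cells; *Hbb-bs* was the most abundant, and *Hbb-y* and *Hbb-bh1* were at 0 in *Tac1*/*Tfap2c* cells. The amount thus moved with the genotype in all cells alike, and its part in the other results was not tested.

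Among the 12 leading rises, *tdTomato* and *Gt(ROSA)26Sor* belong to the construct. *tdTomato* was at 0 in both controls and at 87.0 and 73.2 CPM in ablated cells, at least 53.1-fold higher in either than the higher of the control floors of 3 UMIs per library. It was at 84.7 and 67.6 CPM in the ablated other cells as well. The study's methods describe leaky *tdTomato* transcript at a low level in most cells, and called cells positive only above a cut-off in counts. The ablated *Tac1*/*Tfap2c* cells held 181 and 335 UMIs of *tdTomato* over 505 and 1132 cells, so its presence here does not mark them as *Nr5a1* lineage. *Gt(ROSA)26Sor*, the locus that carries both Rosa alleles, was at 18.9 and 18.4 against 81.7 and 116.1 CPM. *Nr5a1* itself was at 0 UMIs in *Tac1*/*Tfap2c* cells of all 4 libraries.

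*Igfbp3* (ENSMUSG00000020427; chromosome 11, 7206086 to 7213923), a secreted binding protein of insulin-like growth factors, was the most abundant of these 12 genes, at 306 and 299 CPM in control and 874 and 737 in ablated cells (log2 1.36, SE 0.12, edgeR adjusted p = 1.24e-04). In *Msx2*/*Inhba* cells *Igfbp3* was at 507 and 390 CPM in control and 1106 and 1275 in ablated libraries. *Selenop* was at 21.3 and 16.5 against 81.7 and 62.9 CPM (log2 1.82), and *Neat1*, a nuclear noncoding RNA, at 14.7 and 10.6 against 47.6 and 47.7 (log2 1.80). In these 3 the genotypes were far apart compared with the spread between libraries. *Dsc3*, a desmosomal cadherin, was at 35.0 and 10.6 against 69.2 and 104.9 CPM, *Cpm*, a carboxypeptidase, at 27.9 and 11.0 against 63.9 and 71.5, and *Ephb1*, an ephrin receptor, at 44.1 and 23.4 against 99.99 and 102.1. For these the controls differed by more than 1.5 times from each other, with the second control lowest, and DESeq2 did not call *Dsc3* and *Cpm*. *Crebrf*, *Lum*, *Rgs2* and *Nr4a2* completed the list, at log2 1.54, 1.45, 1.38 and 1.36; without the first control *Rgs2* was not called.

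**Figure D5:**
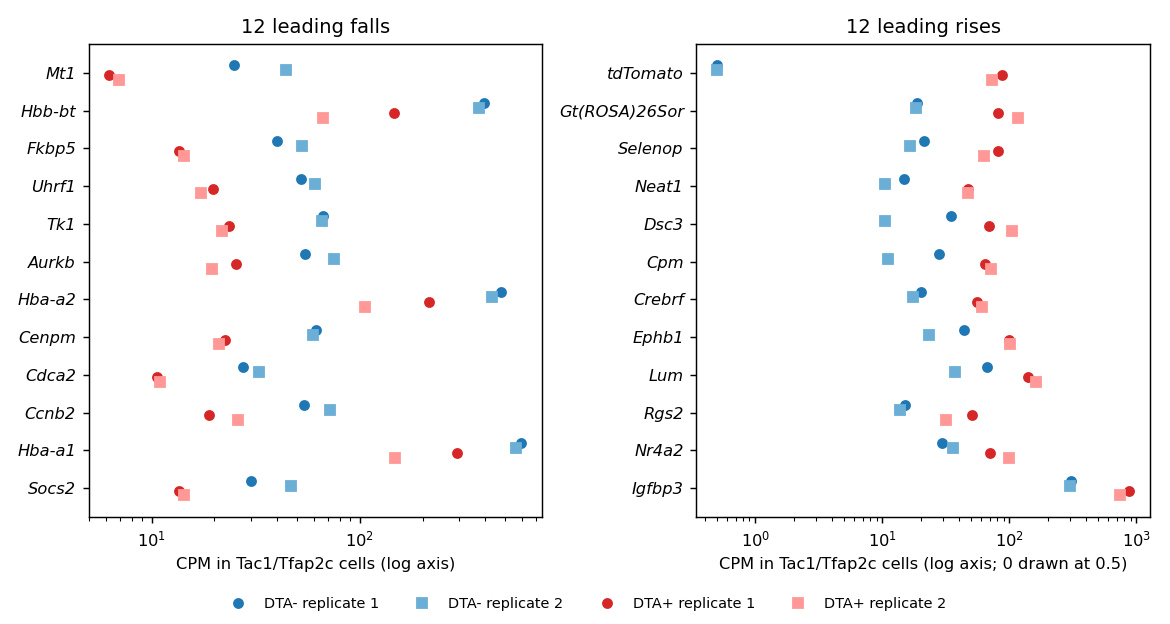
Level of the 12 leading falls (left) and 12 leading rises (right) in *Tac1*/*Tfap2c* cells of each library (x axis, CPM of summed counts, log axis), chosen by size among called genes at 20 CPM or more whose genotypes did not overlap. *Igfbp3* sits at 306 and 299 CPM in controls and 874 and 737 in ablated libraries; *tdTomato*, at 0 in the controls, is drawn at 0.5.

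Most calls were lost when the cells with cell cycle genes were left out, while many of the leading genes kept theirs. In members with fewer than 3 of the 18 cell cycle genes, 111 of 10035 genes were called (1.11%), against 979 of 11443 (8.56%) in all members. Of the 111, 110 were also called in all members. *Igfbp3* was then at log2 1.02, *Selenop* at 1.48, *Fkbp5* at -1.90 and *Mt1* at -2.57, each past the threshold, while *Uhrf1*, *Dsc3* and *Rgs2* no longer passed it, at smaller log2 fold changes of -1.20, 1.19 and 1.14 (-1.68, 1.78 and 1.38 in all members). This setting was also added after the data were seen.

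Genes of axon guidance were the list with the most rises. Of 36 genes, 31 were tested; 12 rose and none fell, beside 3.3% of all genes that rose, with a median log2 of 0.45 against 0.01. Among secreted cues, *Sema3a* was at 46.5 and 34.9 against 91.8 and 105.8 CPM, *Sema3d* at 19.1 and 22.1 against 58.7 and 49.0, and *Slit2* at 82.8 and 74.0 against 200.5 and 115.4. Among receptors, *Robo2*, which binds Slit proteins, was at 159 and 185 against 264 and 289 CPM, and *Nrp2*, *Dcc*, *Epha4*, *Epha7* and *Ephb1* rose too. *Gfra1* and *Gfra2*, co-receptors of the GDNF family, and *Bdnf*, a neurotrophin, made up the 12. The count depended on each control: without the first control 4 of 31 were called, without the second 5 of 33, and DESeq2 called 7 and gave no adjusted p for *Dcc* and *Bdnf*. A difference in response to the other kept cells was called for none of 35 genes of the list (edgeR), with a median difference of 0.18, so equal responses are not shown. In *Msx2*/*Inhba* cells the median log2 of the list was 0.44, with 1 of 30 tested genes called higher. The median difference in response to those cells was 0.02, with none of 31 genes called.

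Some related adhesion molecules were called higher too. Of 13 tested genes of the latrophilin, FLRT, teneurin and Unc5 families, 4 rose, beside 3.3% of all genes: *Flrt2* (63.7 and 47.8 against 98.1 and 147.1 CPM), *Unc5c*, *Unc5d* and the sparse *Tenm1*. *Flrt2* and *Unc5d* encode known binding partners of each other, and FLRT proteins bind latrophilins such as the selecting gene *Adgrl3*. The 13 include *Adgrl3*, which was not among the 4. DESeq2 called 2 of the 13 and gave no adjusted p for *Tenm1*, and in members with few cell cycle genes 1 of 11 was called.

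Of 14 tested genes of the insulin-like growth factor axis 5 rose, *Igfbp3*, *Igf1r*, *Insr*, *Igfbp7* and *Stc1*, and *Socs2* fell, where 3.3% of all genes rose and 5.25% fell. DESeq2 and members with at least 4 selecting genes each gave 2 rises, and cells of 2000 to 5000 UMIs gave 3; DESeq2 gave no adjusted p for *Stc1*. *Igf1r*, the receptor, was at 195 and 190 CPM in controls and 331 and 341 in ablated cells (log2 0.75, SE 0.12, edgeR adjusted p = 0.00255). The genotypes were again far apart compared with the spread within them.

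Among ligands of patterning pathways, *Wnt5a*, a WNT ligand of the distal glans, was at 853 and 828 CPM against 1240 and 1446 (log2 0.62, SE 0.10, edgeR adjusted p = 0.00362), and *Inhba*, an activin subunit, at 130 and 86.8 against 177 and 274 (log2 0.99). *Wnt5a* was higher outside these cells too. It was at 656.5 and 749.6 against 935.9 and 1013 CPM in the other kept cells, and at 924 and 980 against 1233 and 1462 in *Msx2*/*Inhba* cells. *Inhba* was at 73.2 and 51.6 against 110.7 and 127.0 CPM in the other kept cells. *Bmp2* fell from 99.9 and 121.7 to 59.6 and 82.8 CPM (log2 -0.66), and *Gdf10*, another ligand of that family, fell by 0.96 on the log2 scale. *Bmp4* overlapped between genotypes, at 435 and 273 against 370 and 547.5 CPM. Of inhibitors and targets, *Dkk3* and *Apcdd1* (WNT), *Id1* (BMP) and *Spry2* (FGF) rose, as did *Gas1*, a Hedgehog co-receptor. Called genes were thus 2 higher and 2 lower of 27 tested in the BMP and activin list, 3 higher of 29 in the WNT list, 1 higher of 17 in the FGF list, 1 higher of 14 in the Hedgehog list and none of 9 in the Notch list, where edgeR called 8.56% of all genes. These calls were few and depended on the setting: DESeq2 called none higher in the BMP and activin list and none in the FGF list, and in members with few cell cycle genes edgeR called none in the BMP and activin, WNT, FGF or Hedgehog lists.

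Of 36 tested transcription factors of the genital tubercle, *Eya1* alone was called (26.7 and 15.6 against 36.5 and 43.5 CPM, log2 0.81), beside 8.56% of all genes, and DESeq2 called none. The median log2 of the 36 was 0.23, with 29 above 0. *Msx1* was at 427.5 and 261 against 309 and 426 CPM and *Msx2* at 206 and 128 against 159 and 229; for both the genotypes overlapped. Of the AP-2 family and its partners, 5 were tested beside the selecting gene *Tfap2c*, and none of the 5 was called, *Tfap2a* being at 134 and 141 against 159 and 208 CPM.

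Receptors and enzymes of steroid hormones were mostly sparse in these cells. *Nr3c1*, the glucocorticoid receptor, was at 40.2 and 51.9 against 86.5 and 75.6 CPM (log2 0.77) and *Esr1*, the estrogen receptor alpha, at 5.14 and 3.22 against 18.8 and 15.1 (log2 1.84); both rose, as did *Hsd17b11*. *Srd5a2*, which converts testosterone to dihydrotestosterone, fell from 12.2 and 23.4 to 4.33 and 8.09 CPM (log2 -1.38). These were 3 rises and 1 fall among 8 tested, where 3.3% of all genes rose and 5.25% fell. With at least 4 selecting genes *Hsd17b11* alone was called, within cells of 2000 to 5000 UMIs *Nr3c1* alone, and DESeq2 called both of these and gave no adjusted p for *Esr1* and *Srd5a2*. *Esr1* and *Srd5a2* were called in the same direction in the other kept cells, where 0.567% of genes were called.

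Of 42 tested matrix genes 4 rose, *Col12a1* (92.3 and 79.9 against 219.7 and 206.8 CPM), *Dcn*, *Lum* and *Npnt*, and none fell, where 3.3% of all genes rose and 5.25% fell. *Dcn*, *Lum* and *Akap12*, which rose in *Tac1*/*Tfap2c* cells (log2 1.16, 1.45 and 1.21), are also markers of the prepuce. *Akap12* was not called with DESeq2 or in members with few cell cycle genes (log2 1.175 and 1.065). Nor was it with at least 4 selecting genes (0.52) or within cells of 2000 to 5000 UMIs (0.65). With at least 4 selecting genes *Dcn* and *Lum* were still called, at log2 0.52 and 0.99. The 8 prepuce markers summed to 394 and 322 CPM in control and 949 and 751 in ablated *Tac1*/*Tfap2c* cells, and to 1798, 2278, 3244 and 2483 in the other kept cells, with *Dcn* the most abundant and none at 0; their part in the rises was not tested. Mast cell markers stood at 217 CPM in the second ablated library, against 52.4, 39.5 and 15.4 in the others, led by *Cma1*, with *Fcer1a* and *Ms4a2* at 0. Macrophage markers were highest in the first ablated library (138 CPM, led by *Lyz2*). With the members that showed at least 3 markers of another class left out, 1070 genes were called, among them all 18 of the cell cycle list and 13 of the 31 axon guidance genes.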

How the data were processed

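The authors dissociated whole penises, made 10x Genomics 3′ libraries and aligned the reads to mm10 with reporter sequences added; the methods name Cell Ranger version 3, the file header and the submitters' processing notes version 4.0.0. The deposited values are UMI counts, whole numbers without normalization, per barcode for 32287 features in 4 libraries. From them, cells were chosen by the rule given at the start, with no clustering and no removal of doublets. The members, gene lists and tests were chosen with earlier results of these data known.

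Counts were summed per library and cell group, filtered with filterByExpr and tested with edgeR 4.0.16 (TMM factors, quasi-likelihood test, Benjamini-Hochberg) in R 4.3.3, on genotype alone or, for 2 cell groups, with terms for sample, group and their interaction with genotype. Both tests were also run on simulated counts with known changes. DESeq2 1.42.0, edgeR's likelihood ratio test, other scalings and filters, the replicate block, other cell rules, thinning to 1000 UMIs and leaving out each library were alternatives. Cells with 2000 to 5000 UMIs, the same cells thinned, members with few cell cycle genes and the crossed block were added after the data were seen. Named genes were the 6 selecting genes, the 25 highest and 10 lowest relative to other cells (at 50 CPM or more; ratios after adding 10 CPM), the 12 largest falls and 12 rises, the 6 largest differences in response each way, and members of the lists. CPM in the text are shares of the summed counts, without TMM factors. Gene positions are from GENCODE M21 (GRCm38), promoters from RefSeq (GRCm38.p6). Python 3.11.15, numpy 2.4.6, scipy 1.17.1, pandas 2.3.3 and matplotlib 3.10.9 did the rest. Of the listed genes, 2 did not match a symbol.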

Additional observations from a re-analysis of the deposited data

Results flagged for a closer look

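The responses of 12 named genes to the ablation differed between *Tac1*/*Tfap2c* cells and all other kept cells by edgeR's interaction test (Benjamini-Hochberg adjusted p under 0.05). The response in *Tac1*/*Tfap2c* cells was lower for *Uhrf1* (log2 difference -1.28), *Aurkb* (-1.14), *Shcbp1* (-1.12), *Prc1* (-1.04), *Sfrp1* (-1.04) and *Lmnb1* (-1.01). It was higher for *Abi3bp* (1.59), *Adra2a* (1.56), *Rgs2* (1.37), *Ablim1* (1.3), *Klf9* (1.26) and *Selenop* (1.24). Without the second control, the calls of *Adra2a*, *Ablim1*, *Klf9*, *Selenop*, *Sfrp1* and *Shcbp1* were lost, that of *Shcbp1* also without the first. With at least 4 selecting genes *Aurkb*, *Shcbp1*, *Sfrp1*, *Adra2a* and *Ablim1* did not pass, and with the same cells thinned to 1000 UMIs these and *Uhrf1* did not. Without the sample term none of the 12 passed. Within cells of 2000 to 5000 UMIs, *Abi3bp* (2.12), *Adra2a* (2.503), *Rgs2* (1.67), *Ablim1* (1.78) and *Klf9* (1.88) also passed. *Selenop* (1.29) did not, nor did any of the 6 genes with a lower response: *Uhrf1* (-0.72), *Aurkb* (-0.62), *Shcbp1* (-0.85), *Prc1* (-0.47), *Sfrp1* (-1.07) and *Lmnb1* (-0.80).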

How the results depend on the processing

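Of the 979 genes called between genotypes, every one kept its direction with DESeq2, the likelihood ratio test, other scalings, the replicate block and each library left out, where it was tested. These settings reuse the same library sums in whole or in part, so a kept direction says little there. Of the called genes tested, 911 of 912 kept their direction within cells of 2000 to 5000 UMIs, 828 of 830 with the same cells thinned, 814 of 841 in members with few cell cycle genes and 268 of 288 with the rule on thinned cells. DESeq2 called 450, members with at least 4 selecting genes gave 440, the same cells thinned to 1000 UMIs 474, cells with 2000 to 5000 UMIs 333, members with few cell cycle genes 111 and the rule applied to thinned cells 2. Leaving out a library gave 403 (without the first control) to 878. Same-numbered libraries did not deviate together (correlation -0.157); the replicate block gave 1033 calls and the crossed pairing 1895.

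The 37 differences to other cells became 224 with the likelihood ratio test, 386 with no filter, 85 with at least 4 selecting genes, 81 with an upper limit of 7500 UMIs, 111 without cells of another class, 24 within 2000 to 5000 UMIs, 4 with the rule on thinned cells, 0 without the sample term and 18 (without the second control) to 340 without a library. The 0 differences to *Msx2*/*Inhba* cells became 10, 35, 2, 10, 4 and 22 in the first 6 of these settings, 4 with the same cells thinned and 10 to 34 without a library.

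The log2 ratio of mean shares of *Tac1*/*Tfap2c* cells, 0.26, was 1.55 with the rule on thinned cells and -0.32 to 0.81 without a library. The lowest ratio of left-out gene detection, 2.43, was 4.40 with thinned cells and 2.33 to 2.58 without a library. With the rule on thinned cells the log2 change of *Hba-a1* was 0.20, and the differences in response of *Shcbp1* and *Sfrp1* were 8.55 (SE 7.31) and 0.36; few counts were left there. Members with few cell cycle genes were chosen by that list itself. There *Top2a*, *Cdk1* and *Pcna* lay above 0 (log2 0.67, 0.74 and 0.19) and were not called. In the other settings, no other of the leading genes, the cell cycle genes and the named differences in response changed direction. The causes were not tested. With 2 libraries per genotype, 1 library can decide a call, and sparse genes limit what the rule detects in shallow cells.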

Other observations

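Other lists moved less evenly, and their counts stand beside 3.3% of all genes that rose and 5.25% that fell. Of 17 tested glucocorticoid-induced genes, *Mt1*, *Mt2* and *Fkbp5* fell in *Tac1*/*Tfap2c* cells, while *Dusp1* (174 and 252 CPM in control, 347 and 432 in ablated libraries) and *Cebpb* (49.7 and 43.6 against 65.4 and 104) rose. *Tsc22d3*, another gene induced by the receptor, was at 54.6 and 51.9 against 50.5 and 42.4 CPM and was not called, and the median of the list was -0.06 (0.08 with at least 4 selecting genes and within cells of 2000 to 5000 UMIs). Of 23 tested immediate early and stress genes, *Junb*, *Ier3*, *Nr4a1*, *Btg2* and *Socs3* rose and *Hsp90aa1*, a chaperone, fell (3.3% and 5.25% of all genes); within cells of 2000 to 5000 UMIs *Btg2* and *Socs3* alone were called. These are genes that cell dissociation can induce, and they included *Fos*, at 1624 and 3002 against 3441 and 3479 CPM, which was not called.

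Of 12 tested genes of glycolysis and hypoxia, *Gapdh*, *Ldha* and *Pgk1* fell (5.25% of all genes did) and none rose. *Gapdh* was at 1005 and 821 CPM in controls and 556 and 601.5 in ablated libraries (log2 -0.71, SE 0.12, edgeR adjusted p = 0.00343). It was also lower in the other kept cells (711 and 595 against 534.5 and 505 CPM) and in *Msx2*/*Inhba* cells (720 and 613 against 464 and 478). Among thyroid hormone genes, *Thra*, a receptor, rose from 150 and 126 to 199.5 and 201.5 CPM (log2 0.47). The neuropeptide precursor *Penk* fell (31.1 and 21.6 against 11.1 and 16.6 CPM) and *Adcyap1*, which encodes the neuropeptide PACAP, rose from 1.22 and 0.459 to 3.85 and 6.99 CPM. *Sox9*, a cartilage factor listed among corpus cavernosum markers, rose from 16.9 and 11.0 to 32.7 and 27.5 CPM (log2 0.97). These calls were weak. Within cells of 2000 to 5000 UMIs *Thra*, *Penk* and *Sox9* were not called. There *Penk* was at log2 -0.14 (-0.96 in all members), whereas *Sox9* was at 1.08. *Adcyap1*, with 5 and 1 UMIs in the controls, was too sparse to be tested there. DESeq2 called none of the 4, giving no adjusted p for *Adcyap1*.

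Of 11 tested general mesenchyme markers 4 rose (*Pdgfra*, *Prrx1*, *Dcn* and *Lum*), and of 13 distal glans markers 2 rose and 1 fell, where 3.3% of all genes rose and 5.25% fell. In members with few cell cycle genes, *Pdgfra* (log2 0.57), *Prrx1* (0.53), *Inhba* (0.66), *Bmp2* (-0.54) and *Wnt5a* (0.48) were not called. *Pdgfra* was also not called with at least 4 selecting genes or within cells of 2000 to 5000 UMIs (0.63 and 0.62). DESeq2 did not call *Inhba* (0.99). None of the tested markers of epithelium (4), endothelium (3), pericytes and smooth muscle (6), macrophages (4), mast cells (5), glia (2), skeletal muscle (2), periurethral mesenchyme (6) or the *Nr5a1* lineage (5) was called by edgeR's quasi-likelihood test, nor any of 5 tested genes of EGF signaling. The likelihood ratio test called 1 periurethral, 1 macrophage and 1 mast cell marker higher. Several lists share genes.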
